A study of Mus musculus with 6 samples.

Results

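Interferon-stimulated genes are the antiviral genes that cells switch on when interferons bind their receptors, and 34 of them were followed here through neuron-enriched dorsal root ganglion (DRG) cells of mice given a leptin vector or a control vector before a spinal cord injury. The members were a list of gene symbols (the IFIT, OAS, Mx and guanylate-binding protein families, the Isg15 system, RNA sensors and further well-known targets). All 34 symbols were found among the 54309 genes of the table. The tested animals had received AAV-Leptin-GFP, an adeno-associated virus carrying leptin together with green fluorescent protein, and the controls AAV-GFP, the same kind of vector with GFP alone. The vector went into both sciatic nerves 4 weeks before a dorsal column axotomy, a cut through the ascending sensory axons in the spinal cord, and L4 to L6 ganglia were taken 24 hours after the cut, dissociated with enzymes and enriched for neurons on a protein gradient. All animals were male C57bl/6 mice aged 8 to 10 weeks, and every animal, controls included, therefore carried a virus and an injury. There are 3 libraries per group. Whether each is 1 animal or a pool cannot be read from the labels, so p-values measure only how far these libraries vary, which may be in part technical, and no uninjured or uninfected sample was analysed here. The sources used here give neither the promoter that drives the transgenes nor the cells that took up the virus.

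Type I interferons bind the receptor pair Ifnar1 and Ifnar2, whose kinases Jak1 and Tyk2 phosphorylate STAT proteins. With Irf9 these form a complex that binds the interferon-stimulated response element (ISRE) in the promoters of its targets, while interferon gamma acts at the gamma-activated site (GAS). Leptin signals through another JAK-STAT branch, with Jak2, Stat3 and the feedback inhibitor Socs3. In the nervous system interferon-stimulated genes are known above all for restricting the growth of viruses in neurons.

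Promoter sequence is shown for 6 members because the ISRE is the element that defines most of these genes and the members varied together across the libraries. RefSeq promoter windows (GRCm38.p6, 250 bases before to 50 after the transcription start) were matched for 24 of the 34 members. The ISRE letters (GAAA, any 2 bases, then GAAA again), read on both strands and with overlapping matches counted, were present in 13 of these 24 genes (54.2%), against 3.99% of all 27025 genes with a window. The GAS letters TTCNNNGAA, which read the same on both strands, were present in 6 of the 24 (25%), against 9.55% of all genes. In the sequences below, each the 150 bases before the start on the strand of the gene, capitals mark ISRE letters. The Isg15 window is chr4:156200819-156200968 (minus strand), Ifit1 chr19:34640739-34640888 (plus), Oas1a chr5:120907526-120907675 (minus), Bst2 chr8:71537473-71537622 (minus), Gbp2 chr3:142620513-142620662 (plus) and Ddx60 chr8:61927937-61928086 (plus).
Isg15: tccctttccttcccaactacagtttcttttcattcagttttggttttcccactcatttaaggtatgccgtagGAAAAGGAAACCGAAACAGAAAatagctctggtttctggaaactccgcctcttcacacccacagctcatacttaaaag
Ifit1: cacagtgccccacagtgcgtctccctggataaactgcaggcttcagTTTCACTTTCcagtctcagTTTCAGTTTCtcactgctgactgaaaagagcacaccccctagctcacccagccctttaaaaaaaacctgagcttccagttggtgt
Oas1a: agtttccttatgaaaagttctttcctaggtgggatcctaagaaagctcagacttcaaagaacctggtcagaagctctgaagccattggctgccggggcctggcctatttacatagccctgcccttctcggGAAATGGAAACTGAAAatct
Bst2: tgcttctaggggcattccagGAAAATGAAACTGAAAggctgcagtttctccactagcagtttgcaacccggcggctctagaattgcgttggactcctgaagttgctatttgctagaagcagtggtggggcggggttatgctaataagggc
Gbp2: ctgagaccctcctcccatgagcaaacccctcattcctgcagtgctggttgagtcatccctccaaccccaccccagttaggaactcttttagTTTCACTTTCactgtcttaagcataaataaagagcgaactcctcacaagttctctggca
Ddx60: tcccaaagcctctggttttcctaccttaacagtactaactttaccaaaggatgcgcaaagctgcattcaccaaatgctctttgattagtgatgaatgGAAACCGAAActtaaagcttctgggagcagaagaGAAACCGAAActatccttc
Isg15 held 3 overlapping ISRE matches, the nearest beginning 66 bases before the start, and Ifit1 held 2, the nearest 85 bases before it. Oas1a, whose nearest match began 14 bases before the start, and Bst2 each held an overlapping pair, Ddx60 held 2 separate matches, and Gbp2 held 1. A match of letters is a description and not a measured binding site, and its absence from other windows says only that these letters are not in them. In Eif2ak2 and Ifih1 the only match began 18 and 32 bases after the start. The 13 members with the letters had 12 fold changes below 0 (median -0.34, range -0.69 to 0.20) in the comparison described next. The 11 without them had 9 (median -0.12, range -0.53 to 0.22), and 50.1% of all tested genes lay below 0. These ranges overlap, the 10 members without a window are in neither set, and a difference between the sets was not tested.

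The values are TPM (transcript abundances corrected for length and scaled to the same total in every library), summed over the transcripts of a gene. TPM keep no read numbers, so depth is unknown and no counting intervals are given. The AAV-Leptin-GFP libraries listed 61474 to 64423 transcripts above 0 and the AAV-GFP libraries 55476 to 60572. Across genes, log2(TPM + 1) correlated at 0.978 to 0.981 within AAV-Leptin-GFP, 0.982 to 0.984 within AAV-GFP and 0.974 to 0.982 between groups. Lep was listed at 0.751, 0.547 and 3.56 TPM in the AAV-Leptin-GFP libraries and at 0 in each AAV-GFP library, as the labels name them. Its mean of 0.810 TPM was under the filter used below, so Lep was not tested. The leptin receptor gene Lepr was at 1.37 ± 0.239 TPM with leptin and 1.13 ± 0.441 TPM with GFP (SD, n = 3 each). All 12 sensory neuron markers were above the filter used below, with summed levels of 15809 to 16087 TPM with leptin and 16427 to 16866 TPM with GFP. All 12 macrophage markers were above it too, so passing the filter does not tell neurons from other cells. Glial transcripts were present too: satellite glial markers summed to 7319 to 8026 TPM with leptin and 8154 to 9310 TPM with GFP. Most of that was Apoe alone, at 5937 to 6504 TPM with leptin and 6655 to 7564 TPM with GFP. Schwann cell myelin markers summed to 847 to 925 TPM with leptin and 962 to 996 TPM with GFP. Fibroblast and mural markers summed to 116 to 136 TPM with leptin and 112 to 153 TPM with GFP. In such bulk samples, fewer cells of a type and less RNA per cell cannot be told apart.

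No interferon-stimulated gene passed the test for a difference between leptin and GFP. All genes that averaged 1 TPM or more over the 6 libraries were compared with limma on log2(TPM + 1), with p-values adjusted over these 15108 genes by the Benjamini-Hochberg method. Of the 34 members 33 were above the filter, and 0 were called higher and 0 lower at an adjusted p under 0.05, against 1.54% of all tested genes called higher and 0.0662% called lower. At an unadjusted p under 0.05, 0 members were higher and 1 lower, where the whole table had 11.3% higher and 8.19% lower. Of the 33 log2 fold changes 28 lay below 0, against 50.1% of all tested genes, and their median was -0.18 (range -0.80 to 0.22), beside a median of -0.00016 over all tested genes. Other lists went either way. All 6 housekeeping genes lay below 0 (median -0.13, 4 of them lower at an unadjusted limma p under 0.05), as did 10 of the 12 sensory neuron markers (median -0.09). Above 0 lay 7 of 10 signal transducers of the interferon pathway (median 0.10) and 4 of 6 tested neutrophil markers (median 0.28). The groups overlapped for every one of the 34 members, whereas 13.3% of all tested genes had all leptin libraries above all GFP libraries and 11.9% had them all below. The smallest adjusted p of a member was 0.233 for Cmpk2.

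Libraries of the same group differed widely in these genes. The residual SD of log2(TPM + 1) had a median of 0.36 over the members and 0.12 over all tested genes, and 32 of the 33 tested members lay above 0.12. Within the leptin libraries the median SD of a member was 0.45, and within the GFP libraries 0.18, where all tested genes had medians of 0.11 and 0.099. The limma 95% interval of a member reached 0.54 to either side of its fold change at the median, so most fold changes of the size seen here were inside the error of 3 against 3 libraries.

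**Figure D1:**
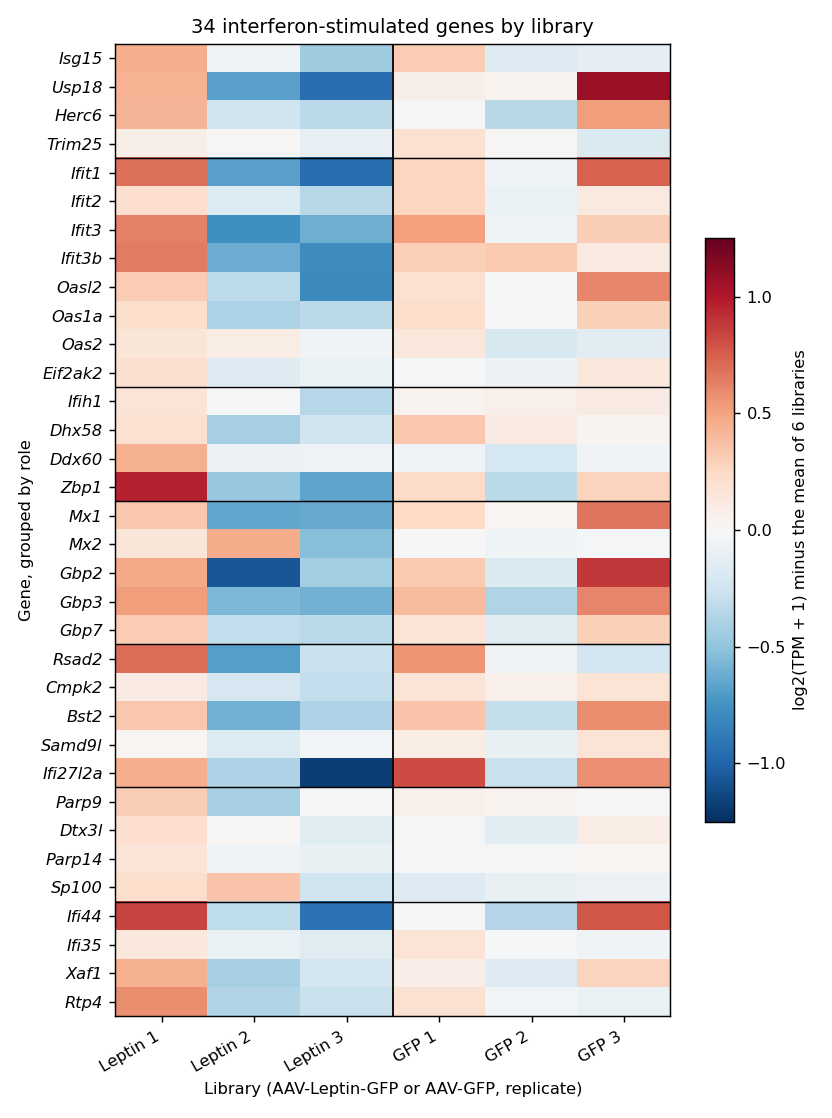
Heat map of log2(TPM + 1) of each of the 34 genes minus its mean over the 6 libraries (color, red above and blue below the mean), with AAV-Leptin-GFP libraries on the left, AAV-GFP libraries on the right, and horizontal lines between role groups. AAV-Leptin-GFP replicate 1 is red for all 33 tested genes, replicates 2 and 3 are mostly blue, and AAV-GFP replicates 1 and 3 are mostly red.

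AAV-Leptin-GFP replicate 1 stood apart from the other leptin libraries. It was the highest leptin library for 32 of the 34 members, against 36.7% of all tested genes, and the highest of all 6 libraries for 16, against 17%. The exceptions in the first count were Mx2 and Sp100, which were highest in replicate 2. Replicate 1 was at least 1.5 times the mean of leptin replicates 2 and 3 for 22 members, a ratio that 3.65% of all tested genes reached. The ratio had a median of 1.73 over the members, from 1.09 for the ubiquitin ligase gene Trim25 to 6.23 for the nucleic acid sensor gene Zbp1, and a median of 1.01 over all tested genes. Leptin replicate 3 was the lowest of the 6 libraries for 18 members (26.2% of all tested genes) and leptin replicate 2 for 12 (13.6%).

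The GFP libraries differed among themselves in the same genes, by less. AAV-GFP replicate 2 was the lowest GFP library for 25 members (41% of all tested genes) and AAV-GFP replicate 3 the highest for 20 (33.5%). Summed over the 34 members, the level was 492.0, 293.5 and 261.6 TPM in leptin replicates 1, 2 and 3, and 457.3, 348.3 and 484.8 TPM in GFP replicates 1, 2 and 3. Leptin replicates 2 and 3 were therefore below every GFP library, and leptin replicate 1 was above every GFP library. The members were singled out and this pattern was seen in the same libraries, so it is a description of these 6 libraries.

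Without AAV-Leptin-GFP replicate 1, left out here because of the values just given, the comparison gave lower values for nearly all members, but still no call. Of 33 tested members 31 then lay below 0 (50.5% of all tested genes), with a median of -0.39 against -0.0020 over all tested genes. At an unadjusted limma p under 0.05, 18 members were lower and 0 higher, where the whole table had 8.51% lower and 9.75% higher. None passed adjustment, the smallest adjusted p being 0.099 for Ifit3b (-0.94, SE 0.13), and of all tested genes 0.0662% were called higher and 0% lower. That library was the highest leptin library for 32 of the 34 members, so lower fold changes without it follow from its removal. The count of 18 is therefore a description only. Leaving out any other library in turn gave 0 or 1 members lower at an unadjusted limma p under 0.05 (5.56% to 6.68% of all tested genes). It gave 0 or 1 members higher (8.43% to 12.1%), the 1 being Sp100 without leptin replicate 3 (0.40, 95% interval 0.13 to 0.67). Leaving out leptin replicate 3 moved the members the other way, to 20 of 33 below 0 (46.1% of all tested genes) and a median of -0.09, and leaving out GFP replicate 2 gave a median of -0.30. Ifit1 stood at -1.13 (95% interval -1.71 to -0.56, adjusted p = 0.132) without leptin replicate 1 and at -0.63 (-1.61 to 0.35, adjusted p = 0.459) with it. With 2 leptin libraries left, their spread rests on 2 values and on the pooled estimate over genes.

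**Figure D2:**
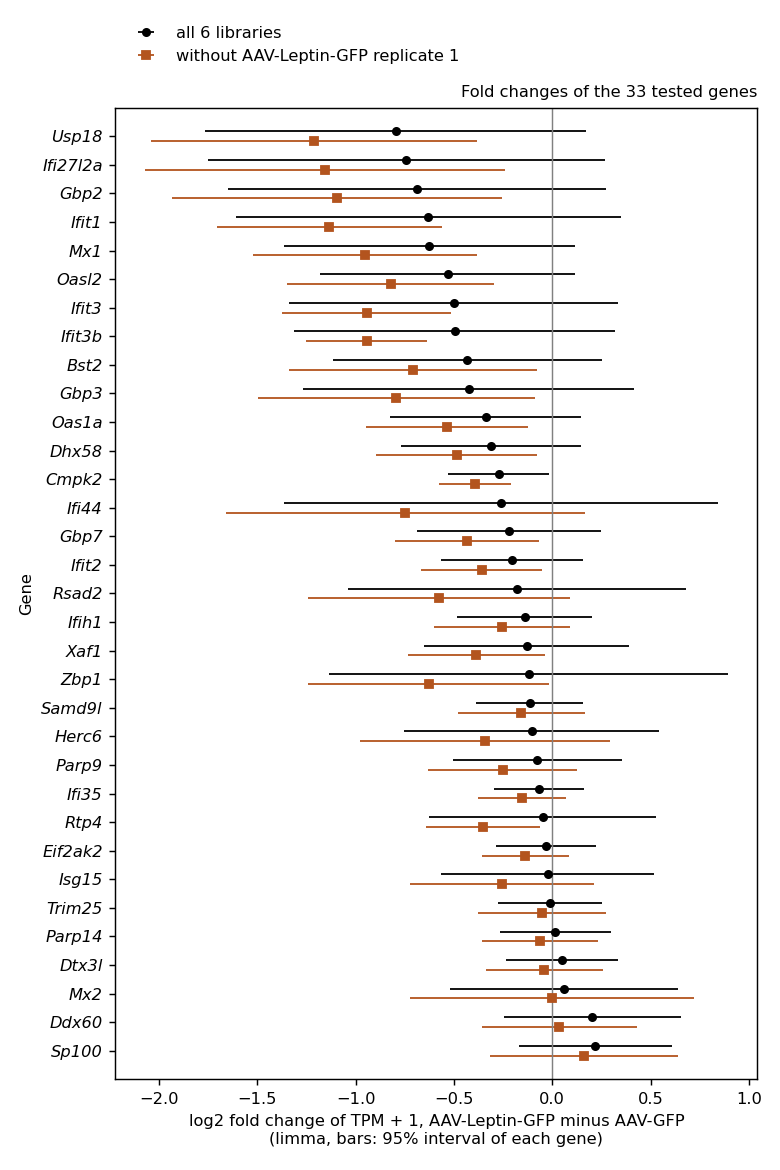
Log2 fold changes of TPM + 1 (AAV-Leptin-GFP minus AAV-GFP) of the 33 tested genes with limma 95% intervals, from all 6 libraries (black circles) and without AAV-Leptin-GFP replicate 1 (orange squares). With all libraries the interval of 1 gene, Cmpk2, leaves out 0. Without that library, left out because it was high in these genes, those of 18 genes do.

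The IFIT proteins bind foreign RNA and block its translation. Their genes Ifit2, Ifit3, Ifit3b and Ifit1 lie close together on chromosome 19 (34550694 to 34650009, GRCm38). Ifit1 was at 32.9, 12.1 and 9.82 TPM in leptin replicates 1, 2 and 3, against 24.2, 19.2 and 33.9 TPM in GFP replicates 1, 2 and 3. Leptin replicate 1 sat with the GFP libraries, while the other leptin libraries were below all of them. Ifit3 was likewise high in leptin replicate 1 alone of its group, with 26.0, 9.23 and 10.4 TPM with leptin and 23.8, 15.7 and 20.6 TPM with GFP (log2 fold change -0.50, SE 0.36, limma adjusted p = 0.493). Ifit3b was at 10.2, 3.67 and 3.19 TPM with leptin and at 7.81, 8.03 and 6.76 TPM with GFP (-0.50, SE 0.35, adjusted p = 0.486), so that the leptin libraries enclosed all GFP libraries. Ifit2 varied less, with group means of 16.5 ± 3.50 TPM with leptin and 19.0 ± 2.41 TPM with GFP (SD, n = 3 each). Ifit3 and Ifit3b cannot be separated well, since 61.8% of the 31-base words in Ifit3 transcripts also occur in Ifit3b, and reads from such stretches are divided by an estimate.

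The OAS enzymes make oligoadenylates that activate RNase L, and Oasl2 belongs to the same family. Oasl2 (chromosome 5, 114896936 to 114912234) had the highest mean level of all members, 61.2, 39.0 and 27.9 TPM in leptin replicates 1, 2 and 3, against 55.9, 48.9 and 75.6 TPM in GFP replicates 1, 2 and 3. Leptin replicates 2 and 3 lay below every GFP library, and the log2 fold change was -0.53 (95% interval -1.18 to 0.12, limma adjusted p = 0.345). Oas1a was at 2.37, 1.199 and 1.29 TPM with leptin and 2.38, 1.86 and 2.56 TPM with GFP, but 68.8% of its 31-base words are shared with other genes, nearly all with Oas1g. Oas2 stayed under the filter at 0.235 to 0.408 TPM with leptin and 0.105 to 0.405 TPM with GFP. Eif2ak2, which encodes the RNA-activated kinase PKR that halts translation, was among the steadier members at 20.1 ± 2.83 TPM with leptin and 20.4 ± 1.65 TPM with GFP (-0.03, 95% interval -0.29 to 0.22). In this group of IFIT, OAS and PKR genes all 7 tested members had fold changes below 0, from -0.63 to -0.03.

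Isg15 is a ubiquitin-like protein that is attached to other proteins, Herc6 is its main ligase in mice, and Usp18 removes it and also silences the type I interferon receptor. Isg15 (chromosome 4, 156199424 to 156200818) was at 23.1, 16.1 and 11.9 TPM with leptin and 20.96, 14.75 and 15.2 TPM with GFP, nearly equal on average (17.05 ± 5.65 and 16.97 ± 3.46 TPM, SD, n = 3 each). Its log2 fold change was -0.02 with a 95% interval of -0.57 to 0.52, which spans a fall and a rise alike. Usp18 (chromosome 6, 121245906 to 121270917) had the lowest fold change of all members, with 6.71, 2.57 and 1.95 TPM with leptin and 5.01, 4.87 and 11.1 TPM with GFP. That fold change was -0.80 (SE 0.41, limma adjusted p = 0.344), and GFP replicate 3 alone lay far above the rest. Herc6 averaged 4.03 ± 1.54 TPM with leptin and 4.42 ± 1.68 TPM with GFP, and Trim25, a ligase that acts with the RNA sensor RIG-I, 9.45 ± 0.625 and 9.59 ± 1.35 TPM.

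**Figure D3:**
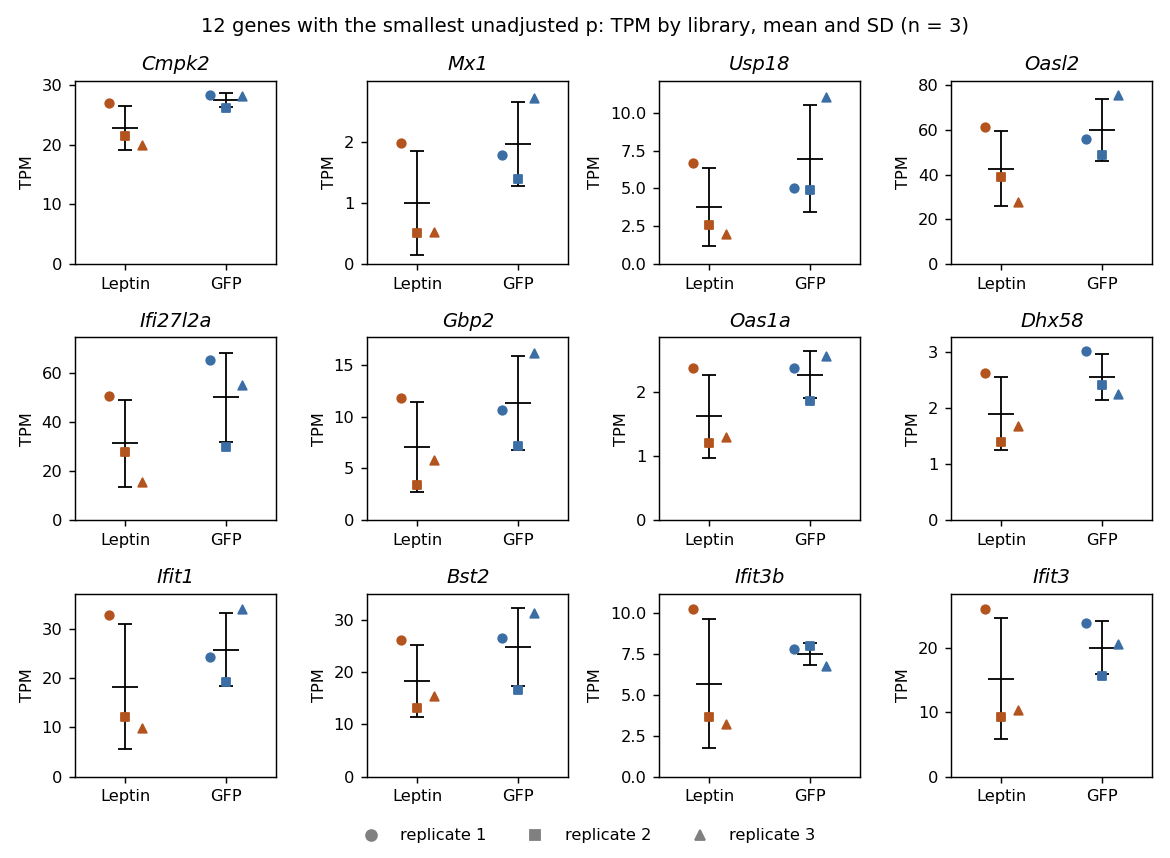
TPM of the 12 genes with the smallest unadjusted limma p in each library (symbols mark the replicate number), with group mean and SD (n = 3), AAV-Leptin-GFP on the left of each panel and AAV-GFP on the right. In every panel leptin replicate 1 is the highest leptin library, and it overlaps the GFP libraries or lies above at least 1 of them.

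Cmpk2, a mitochondrial nucleotide kinase, and Rsad2, the radical SAM enzyme viperin, are neighbours on chromosome 12 (26469204 to 26479837 and 26442746 to 26456452). Cmpk2 was at 26.9, 21.4 and 19.9 TPM with leptin, against 28.3, 26.1 and 28.1 TPM with GFP. Its GFP libraries were tight (27.5 ± 1.195 TPM), leptin replicate 1 fell among them, and the fold change was -0.27 (SE 0.11, limma adjusted p = 0.233). Rsad2 was more variable at 6.59, 1.91 and 2.85 TPM with leptin and 5.87, 3.53 and 2.97 TPM with GFP (-0.18, adjusted p = 0.835). Bst2, the tetherin that holds budding virus at the membrane, was at 26.2, 13.2 and 15.5 TPM with leptin and 26.5, 16.6 and 31.2 TPM with GFP (-0.43, adjusted p = 0.471). Ifi27l2a, the second most abundant member, was at 50.5, 27.6 and 15.6 TPM with leptin and 65.1, 29.9 and 54.8 TPM with GFP, so that GFP replicate 2 lay in the leptin range (-0.74, adjusted p = 0.400). Samd9l was steady at 4.70 ± 0.393 TPM with leptin and 5.18 ± 0.554 TPM with GFP.

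Guanylate-binding proteins are large GTPases induced mostly by interferon gamma. Gbp7, Gbp3 and Gbp2 lie close together on chromosome 3 (142530342 to 142638008). Gbp2 was at 11.8, 3.41 and 5.86 TPM with leptin and at 10.6, 7.16 and 16.1 TPM with GFP (log2 fold change -0.69, SE 0.41, limma adjusted p = 0.411). Here too leptin replicates 2 and 3 were below every GFP library. Gbp3 (8.47 ± 4.55 TPM with leptin, 11.3 ± 4.00 TPM with GFP) and Gbp7 (7.40 ± 2.27 and 8.65 ± 1.45 TPM) had fold changes of -0.42 and -0.22. Mx1 and Mx2 are dynamin-like antiviral GTPases, and C57BL/6 mice carry a defective Mx1 allele, while the annotation classes the main Mx2 transcript as a polymorphic pseudogene. Mx1 was near the filter at 1.97, 0.497 and 0.514 TPM with leptin and 1.78, 1.39 and 2.72 TPM with GFP (-0.62, adjusted p = 0.329), and Mx2 was at 2.94, 3.91 and 1.46 TPM with leptin and 2.53, 2.42 and 2.49 TPM with GFP.

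The 4 members that sense foreign nucleic acid, Dhx58, Ifih1, Zbp1 and Ddx60, had mean levels under 5 TPM. Dhx58, which encodes the RNA sensor LGP2, was at 2.63, 1.39 and 1.68 TPM with leptin and 3.01, 2.41 and 2.24 TPM with GFP (log2 fold change -0.31, SE 0.19, limma adjusted p = 0.432). Ifih1, the sensor MDA5, averaged 4.44 ± 0.954 TPM with leptin and 4.93 ± 0.116 TPM with GFP. Zbp1, which binds Z-form nucleic acid and can start cell death, was at 3.48, 0.659 and 0.458 TPM with leptin, against 1.72, 0.827 and 1.79 TPM with GFP. Leptin replicate 1 was far above all other libraries for Zbp1, and its group means were alike (1.53 ± 1.69 and 1.45 ± 0.539 TPM). Ddx60, a helicase of RIG-I-like signalling, was among the 5 members with a fold change above 0 (0.20, 95% interval -0.25 to 0.65).

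Of the other members above 0, Sp100, Parp14 and Dtx3l belong to the ADP-ribosylation and nuclear body genes, and the last was Mx2. Sp100, a component of PML nuclear bodies, was at 5.47, 6.08 and 3.67 TPM with leptin and 3.94, 4.19 and 4.28 TPM with GFP (log2 fold change 0.22, limma adjusted p = 0.522). Leptin replicates 1 and 2 were above all GFP libraries and replicate 3 below them. Parp14 and Dtx3l, a mono-ADP-ribosyltransferase and the ubiquitin ligase partner of Parp9, were at 0.01 and 0.05, and Parp9 was at -0.08. Parp14 had the smallest spread of the 4, with 3.54 ± 0.444 TPM with leptin and 3.48 ± 0.0966 TPM with GFP. Dtx3l and Parp9 overlap on opposite strands of chromosome 16 (35926511 to 35939151 and 35938470 to 35972605). Reads in the overlap are therefore assigned safely only if the strand was used. The sequencing was stranded, but the sources used here do not say whether the processing used the strand.

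Of the remaining members, Ifi35 and Xaf1 were among the most abundant. Ifi35, an interferon-induced leucine zipper protein, was at 25.5, 21.8 and 20.7 TPM with leptin and 26.2, 22.8 and 22.5 TPM with GFP (log2 fold change -0.07, 95% interval -0.30 to 0.16). Xaf1, which binds the apoptosis inhibitor XIAP, was at 31.2, 16.7 and 19.1 TPM with leptin and 24.0, 20.1 and 27.6 TPM with GFP (-0.13, adjusted p = 0.798 with limma). Ifi44 and Rtp4 had group means of 3.03 ± 2.57 and 9.60 ± 4.19 TPM with leptin and 3.48 ± 1.89 and 9.48 ± 1.06 TPM with GFP. In order of mean level, Oasl2 (51.4 TPM over the 6 libraries, SD 16.8) and Ifi27l2a (40.6, SD 19.0) led, and Cmpk2, Ifi35, Xaf1, Ifit1, Bst2 and Eif2ak2 followed between 25.1 and 20.2 TPM, each neighbouring pair differing by less than the larger of its SDs. In all, 11 members had means of at least 10 TPM, 22 lay from 1 to 10 TPM, and Oas2 was last at 0.276 TPM.

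Single transcripts were looked at after the gene values were known. In a limma fit of all 33615 transcripts with a mean of at least 1 TPM, 0 of 44 member transcripts passed at an adjusted p under 0.05 (0.107% of all transcripts were called higher and 0.0238% lower), and 38 of the 44 had fold changes below 0, against 48.6% of all transcripts. At an unadjusted p under 0.05, 1 was higher and 2 were lower (12.3% and 6.01% of all transcripts). The higher one was an Ifi35 transcript of the nonsense-mediated decay class (1020 nucleotides), at 4.10, 3.34 and 3.15 TPM with leptin and 1.71, 0.986 and 1.87 TPM with GFP (log2 fold change 0.86, SE 0.22, adjusted p = 0.102). The coding Ifi35 transcript of 1362 nucleotides had 18.1 ± 2.33 TPM with leptin and 21.9 ± 1.46 TPM with GFP (-0.26, adjusted p = 0.269). The most abundant Oasl2 transcript was also of the decay class (2020 nucleotides), with 33.7, 19.4 and 12.6 TPM with leptin and 33.3, 28.1 and 41.9 TPM with GFP. Retained-intron transcripts took 2.54%, 4.65% and 2.30% of the summed member TPM in leptin replicates 1, 2 and 3, and 1.93%, 1.98% and 1.68% in GFP replicates 1, 2 and 3. Over all genes the same class took 3.24% to 3.75% with leptin and 2.10% to 2.50% with GFP.

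Interferons themselves were close to absent. Of 21 interferon ligand genes 19 were listed at 0 in all 6 libraries, Ifnb1 included, and Ifng did not exceed 0.0906 TPM with leptin and 0.387 TPM with GFP. The receptors were present, and of 5 tested receptor genes 0 passed. Ifnar2 had the smallest p of them, with 23.7, 21.2 and 20.7 TPM with leptin and 28.7, 23.7 and 26.5 TPM with GFP (log2 fold change -0.25, SE 0.09, limma adjusted p = 0.182). The virus and DNA sensors upstream of interferon gave 0 of 7 tested genes past the threshold, with the adaptor gene Myd88 at 0.24 (adjusted p = 0.432).

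Between receptor and target genes, 1 of 10 transducers and 1 of 10 brakes were called higher and 0 lower, against 1.54% and 0.0662% of all tested genes. Irf1, a transcription factor that interferon gamma and STAT signalling induce, was at 33.1, 41.0 and 29.7 TPM with leptin and 15.8, 10.8 and 15.0 TPM with GFP. Every leptin library was above every GFP library, and the log2 fold change was 1.27 (SE 0.16, limma adjusted p = 0.0238). Socs3 was at 109, 131 and 102 TPM with leptin and 51.9, 46.5 and 45.7 TPM with GFP (1.22, SE 0.10, adjusted p = 0.00835). Of 17 alternative settings Irf1 stayed past the threshold in 9 (adjusted p from 0.0146 to 0.146) and Socs3 in 13 (0.00177 to 0.0839). Leaving out any of the libraries but GFP replicate 1 ended the call of Irf1, and leaving out leptin replicate 1, GFP replicate 2 or GFP replicate 3 ended that of Socs3.

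Stat2 and Irf9, components of the complex that binds the ISRE, and Irf7 did not pass the test, with log2 fold changes of 0.15, 0.18 and -0.14 (limma adjusted p = 0.661, 0.652 and 0.877). Each was highest in leptin replicate 1, with Irf7, the factor that amplifies the response, at 11.5, 5.06 and 3.89 TPM with leptin and 7.09, 4.67 and 9.80 TPM with GFP. The groups of Irf3 and Tyk2, named after their values were seen, did not overlap (0.67, adjusted p = 0.0951, and 0.46, adjusted p = 0.0958). For Irf3 the fold change was -0.14 with protein-coding transcripts only. Over the 10 transducers 3 were higher at an unadjusted p under 0.05 and 0 lower, where all tested genes had 11.3% and 8.19%, and 13.3% of all tested genes had every leptin library above every GFP library.

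**Figure D4:**
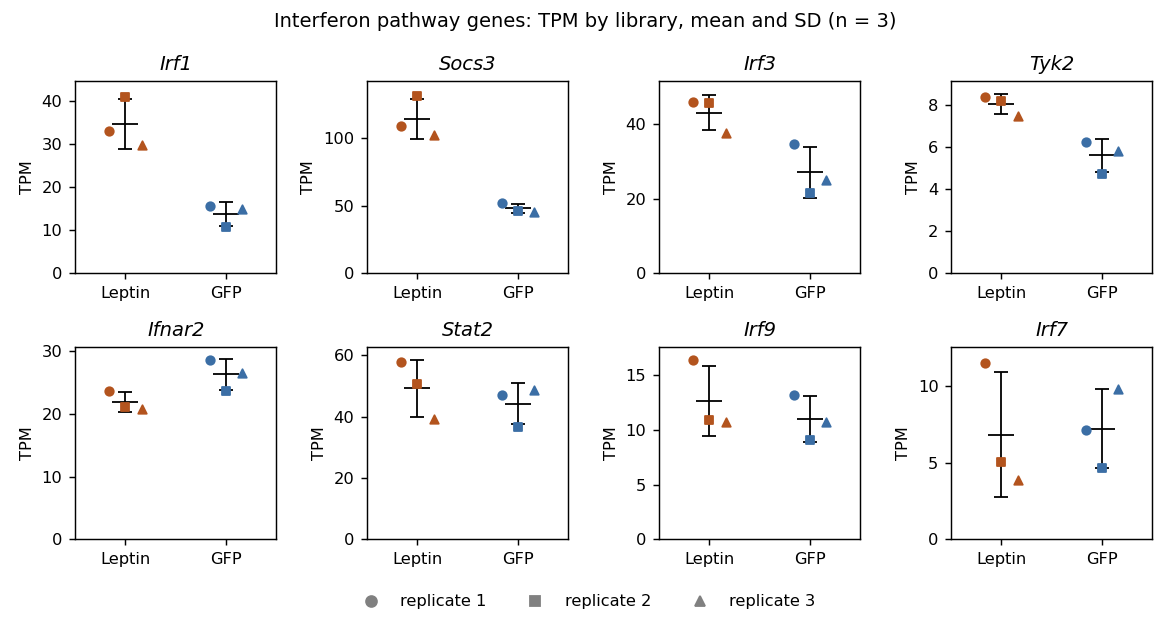
TPM of 8 genes of the interferon pathway in each library (symbols mark the replicate number), with group mean and SD (n = 3), AAV-Leptin-GFP on the left of each panel and AAV-GFP on the right. The groups are apart for Irf1, Socs3, Irf3 and Tyk2, of which Irf1 and Socs3 passed. They meet at 1 value for Ifnar2 (23.7 TPM in both) and overlap for Stat2, Irf9 and Irf7.

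A second list of 68 further interferon-stimulated genes, all found in the table and 48 of them tested, gave no call either. None passed in either direction, and 1 was higher and 4 were lower at an unadjusted limma p under 0.05, beside 11.3% higher and 8.19% lower among all tested genes. Of the 48, 30 lay below 0 (50.1% of all tested genes), with a median log2 fold change of -0.12. The median was -0.00016 over all tested genes and -0.13 over the 6 housekeeping genes. Lgals3bp, a secreted galectin-binding protein, had the smallest p, with 63.6, 56.5 and 52.7 TPM with leptin and 68.0, 70.8 and 69.6 TPM with GFP (-0.27, SE 0.07, limma adjusted p = 0.107), every leptin library below every GFP library. Leptin replicate 1 was the highest leptin library for 39 of the 48 (36.7% of all tested genes), but the highest of all 6 for only 11 (17%), and leptin replicate 3 was the lowest leptin library for 21 (48.5%). Without leptin replicate 1, 35 of 48 lay below 0 (50.5% of all tested genes). At an unadjusted limma p under 0.05, 13 were then lower (8.51%) and 1 higher (9.75%), and the smallest adjusted p was 0.121. As that library was the highest leptin library for most of these genes, lower values without it follow from its removal.

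Markers of other cell types were set beside the library pattern, and their part in it was not tested. The 12 macrophage markers summed to 92.1, 89.2 and 97.8 TPM in leptin replicates 1, 2 and 3, and 103.6, 92.5 and 77.8 TPM in GFP replicates 1, 2 and 3, with leptin replicate 1 in the middle of its group. Lymphocyte, natural killer and plasmacytoid dendritic cell markers, 12 in all, summed to 3.12 to 5.04 TPM with leptin and 2.78 to 4.46 TPM with GFP, and 1 of them was above the filter. The 8 neutrophil markers summed to 258.7, 212.4 and 286.1 TPM with leptin and 169.3, 410.5 and 117.8 TPM with GFP, highest in GFP replicate 2, where the members were lowest of the GFP group. The 8 endothelial markers summed to 34.1, 22.6 and 25.1 TPM with leptin and 31.6, 25.9 and 26.1 TPM with GFP. Leptin replicate 1 was the highest leptin library for 6 of the 6 tested, against 36.7% of all tested genes. For the untested endothelial marker Kdr leptin replicate 3 was the highest (0.692, 0.402 and 0.709 TPM). Leptin replicate 1 also led its group for 7 of the 7 tested virus and DNA sensors, and for 3 of 12 macrophage and 1 of 6 neutrophil markers. No marker of these lists was at 0 in all libraries.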

How the data were processed

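RNA was measured by stranded polyadenylated RNA sequencing of 6 libraries. The authors deposited TPM values, 1 per Ensembl transcript and library. Salmon 1.6.0, Trim Galore 0.6.6, FastQC 0.11.9, DESeq2 1.34.0 and the builds GRCm38 and mm10 are named, with no role or order, per the submitters' processing notes. The sources used here do not give the annotation release or any use of strand. TPM of 140789 transcripts were summed by gene identifier. Coordinates and transcript classes are from GENCODE M21 (GRCm38), which holds 97.4% of the transcript identifiers, and promoters from RefSeq (GRCm38.p6). Genes averaging 1 TPM or more entered limma 3.58.1 as log2(TPM + 1) (R 4.3.3, eBayes with trend, two-sided, no covariates), a scale that understates changes of low genes. Figures used Python 3.11.15 and matplotlib 3.10.9. The code was tested on simulated data.

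The members and lists were chosen with earlier results of these data known. Per-library values were given for the 12 members with the smallest p, the 5 most abundant, the 3 with the lowest fold change, and others where a statement turns on them. From each pathway list the called genes, or otherwise the gene with the smallest p, were named. TPM hold no read numbers, and reads shared by similar transcripts are divided between them by estimate. A pathway result is not reported here. Alternatives were other pseudocounts, filters, variance models, scalings, protein-coding transcripts only, a replicate block, and leaving out each library.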

Additional observations from a re-analysis of the deposited data

How the results depend on the processing

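No member was called in either direction under any of 17 other settings, nor in the transcript fit, which was chosen after seeing the data. The median of the members stayed below 0, from -0.39 (without AAV-Leptin-GFP replicate 1) to -0.09 (without AAV-Leptin-GFP replicate 3), and the summed level differed by -152.5 to -37.4 TPM, against -81.1 TPM over all libraries. Over the whole table, the 233 higher and 10 lower calls became 4 and 0 with no filter, 35 and 0 without the variance trend, 53 and 4 with protein-coding transcripts, and 74 and 0 with the replicate number as a block. Lower calls were 27 with a mean of at least 5 TPM, 23 with robust eBayes, 16 after quantile normalization, 26 with median-of-ratios rescaling and 3 without mitochondrial genes. Leaving out 1 library gave 3 to 409 higher and 0 to 11 lower. Same-numbered libraries did not deviate together (correlations across genes of 0.034, -0.070 and -0.024), and differently numbered ones gave -0.082 to 0.11. Whether the numbers pair the samples cannot be read from such values. The block called 0 members. Of 545 member values 511 kept their direction and 34 reversed, in 15 members. Irf3, Irf7 and Irf9 in the lists that follow are other pathway genes and are not among these values. Reversed values were -0.066 (Dtx3l), -0.081 (Mx2) and -0.12 (Parp14) after quantile normalization, 0.0015 (Eif2ak2), 0.0083 (Isg15) and 0.018 (Trim25) without mitochondrial genes, and -0.023 (Parp14), -0.14 (Irf3) and -0.0026 (Irf9) with protein-coding transcripts. Leaving out libraries gave -0.041 to 0.14 for Dtx3l, -0.14 to 0.042 for Eif2ak2, -0.34 to 0.13 for Herc6, -0.15 to 0.00041 for Ifi35, -0.75 to 0.13 for Ifi44, -0.26 to 0.00097 for Ifih1, -0.26 to 0.19 for Isg15, -0.16 to 0.34 for Mx2, -0.064 to 0.066 for Parp14, -0.25 to 0.11 for Parp9, -0.57 to 0.12 for Rsad2, -0.35 to 0.13 for Rtp4, -0.11 to 0.078 for Trim25, -0.39 to 0.042 for Xaf1, -0.63 to 0.18 for Zbp1, -0.54 to 0.14 for Irf7 and -0.0083 to 0.31 for Irf9. The cause of these changes was not tested. Read depth is unknown, and 3 libraries per group limit the precision.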

Other observations

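Tgtp2 and Igtp, interferon gamma-induced GTPases, are in the list of further interferon-stimulated genes. Tgtp2 was at 4.79, 1.31 and 3.26 TPM with leptin (replicates 1, 2 and 3) and 4.62, 4.32 and 11.4 TPM with GFP (replicates 1, 2 and 3), with a log2 fold change of -0.90 and a limma adjusted p of 0.294. The values were 31.9, 17.5 and 21.2 TPM with leptin and 32.1, 28.3 and 38.9 TPM with GFP for Igtp (-0.51, adjusted p = 0.249). For both genes GFP replicate 3 was the highest library and leptin replicate 2 the lowest. B2m, the light chain of class I histocompatibility molecules, was at 598.6, 430.7 and 425.4 TPM with leptin and 623.4, 483.8 and 890.9 TPM with GFP (-0.43, adjusted p = 0.348). Isg20, an RNA exonuclease, had the smallest p among those above 0, with 3.13, 3.20 and 3.47 TPM with leptin and 2.45, 2.09 and 2.06 TPM with GFP (0.42, adjusted p = 0.133), and its groups did not overlap. The chemokine gene Cxcl10 was at 24.0, 11.1 and 16.05 TPM with leptin and 9.68, 11.0 and 21.4 TPM with GFP (0.28, adjusted p = 0.702). These genes were named after their values were seen.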
